A study of Mus musculus with 4 samples.

Results

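Keratins are the intermediate filament proteins of epithelial cells. A type I keratin pairs with a type II keratin to build a filament, and basal cells, which lie on the basement membrane under the luminal cells, carry the Krt5 and Krt14 pair. Krt15 is a further type I keratin of basal layers, and Krt17 and Krt6a are best known from skin, where they appear after wounding and other stress and so are called stress keratins. In the prostate, basal cells are marked by the transcription factor Trp63, and luminal cells by Krt8 and Krt18.

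The 5 genes Krt5, Krt14, Krt15, Krt17 and Krt6a were followed through single-cell libraries of the mouse prostate. They were chosen by name, and each had 1 entry among the 31053 genes counted. Cells were divided by UMIs of Trp63 and Krt8 and not by these keratins. A UMI, or unique molecular identifier, marks 1 captured RNA molecule, so levels of different genes were compared per molecule and needed no correction for length.

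Adult prostates came from P2-Runx1:RFP mice of the ICR (CD-1) strain that were over 8 weeks old, and every adult animal, control or castrated, carried this reporter, in which the proximal P2 promoter of Runx1 drives RFP. EPCAM+ cells were sorted as RFP+ or RFP- from 3 lobes of the gland, the ventral (VP), the dorsolateral (DLP) and the anterior (AP), then tagged with MULTI-seq barcodes and sequenced in 3 runs. Intact mice were in all 3 runs, mice castrated for over 4 weeks were in runs 1 and 2, and intact DLP RFP+ cells were assigned in run 3 only. Mice were pooled before sorting, so a run is 1 replicate. Urogenital sinuses of E15.5 ICR (CD-1) embryos, the tissue from which the prostate buds, were grown as explants with 10 µM dihydrotestosterone, and days 0, 1, 3 and 6 shared 1 library.

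In all, 4691 adult cells and 5198 explant cells were assigned to 1 sorted population, with a median of 9750.0 to 14784.5 UMIs per cell in the 4 libraries. A cell with at least 1 Trp63 UMI was taken as Trp63+, and a cell with no Trp63 but at least 1 Krt8 UMI as Trp63- Krt8+. Cells with UMIs of hematopoietic, endothelial, mesonephric or fibroblast markers were set apart first, and the hematopoietic cells were kept as a comparison class. Their 10 intact sums also carried Krt8 at 172 to 1103 CPM and Krt18 at 309 to 1983 CPM, so they are no keratin-free background. Levels are given as CPM, the UMIs of a gene scaled to 1000000 UMIs of its sum, where a sum holds the cells of 1 population, class and run and needed at least 10 cells.

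The genes lie in the 2 keratin clusters of the genome (GRCm38), all on the minus strand. The type II genes are Krt5 at chr15:101707070-101712898 and Krt6a at chr15:101689910-101694307. The type I genes are Krt15 at chr11:100131758-100135928, Krt14 at chr11:100203162-100207548 and Krt17 at chr11:100256217-100261029. Shown here are the 60 coding bases at the end of the central rod of the 3 type I members, where keratins are most alike, read from the GENCODE M21 transcripts. Capitals mark the bases that the 3 do not all share.
Krt14: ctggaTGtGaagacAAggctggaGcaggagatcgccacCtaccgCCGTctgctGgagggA
Krt17: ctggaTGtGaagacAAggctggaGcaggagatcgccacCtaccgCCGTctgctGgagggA
Krt15: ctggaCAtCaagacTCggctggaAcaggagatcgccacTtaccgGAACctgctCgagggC

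Krt14 and Krt17 were identical at 60 of 60 bases, and Krt15 shared 47 of 60 with either. In the last 500 bases of the transcripts, where a 3′ library takes its reads, 43 of 451 windows of 50 bases in Krt14 also occurred in Krt16 or Krt17, and 43 of 451 in Krt17 also occurred in Krt14 or Krt16. No such window was shared by Krt5, Krt15 or Krt6a. A read that lies wholly within shared bases cannot be placed, so the counts of Krt14 and Krt17 may carry an uncertainty not seen for the other members. How many reads this concerns was not examined.

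Krt15 was the most abundant of the 5 keratins in Trp63+ cells of every intact population. Over 15 sums it lay between 5220 and 9353 CPM, with a median of 6308 CPM. Krt14 lay between 1174 and 3156 CPM (median 2180 CPM), and the lowest Krt15 sum was above the highest Krt14 sum. Krt5 followed at 697 to 1695 CPM (median 895 CPM) and Krt17 at 297 to 1295 CPM (median 661 CPM). The ranges of Krt14 and Krt5 overlapped, as did those of Krt5 and Krt17, but within a sum Krt14 was above Krt5 in 15 of 15. The order Krt15, Krt14, Krt5, Krt17, Krt6a held in 12 of 15 sums, and in the other 3 of 15 Krt17 was above Krt5. Krt6a was at a median of 0 CPM and reached 25.9 CPM in run 2 of AP RFP-, which rested on 14 UMIs in 30 cells, 11 of them in 1 cell.

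At 1 depth of 3000 UMIs per cell, Krt15 was found in 93.3% to 100% of the Trp63+ cells of an intact sum, Krt5 in 63.2% to 95.1%, Krt14 in 64.5% to 95.1%, Krt17 in 31.9% to 73.0% and Krt6a in 0% to 3.33%. Without thinning, Krt15 was in 96.7% to 100% of them, at 7973 to 16737 median UMIs per cell. In hematopoietic cells at 3000 UMIs the share was 0% to 12.5% for Krt5, 0% to 25% for Krt14 and 0% to 6.25% for Krt17, and these cells had 6797.5 to 25802.5 median UMIs. For Krt15 it was 0% to 25% in 9 of 10 sums and 64.3% in the 14 cells of AP RFP+ of run 3. Intervals given for single libraries are 95% exact intervals and cover counting error only.

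In intact AP RFP+ and RFP- cells that were Trp63+, the 4 measurable keratins differed by less than the spread between runs. Krt15 was at 6875, 5601 and 6075 CPM in RFP+ cells of runs 1, 2 and 3, and at 8319, 5392 and 5812 CPM in RFP- cells. Krt5 was at 1169, 782 and 766 CPM against 1316, 697 and 737 CPM. The groups overlapped for both genes, and run 1 was the highest in each. In edgeR's quasi-likelihood test with runs as replicates, the log2 fold changes of RFP+ against RFP- were -0.0053 (SE 0.24) for Krt5, 0.014 (SE 0.21) for Krt14, -0.057 (SE 0.20) for Krt15 and 0.068 (SE 0.35) for Krt17, each with a Benjamini-Hochberg adjusted p of 1.00. Of 7409 genes, 0 passed (0% called), 87 had an unadjusted p under 0.05, and DESeq2 called 0. The p-values measure the spread between runs, each of 1 pool of mice per population. These changes are smaller than their errors, and the sign of each of the 4 turned under at least 1 other setting. Krt6a was too low to be tested here or in any comparison below.

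Among intact Trp63+ cells, the ratio of Krt14 to Krt5 was lowest in RFP+ cells of the VP, which did not hold for RFP- cells of that lobe. In Trp63+ RFP+ cells of the VP, Krt14 was at 1712, 1372 and 1174 CPM in runs 1, 2 and 3 and Krt5 at 1695, 895 and 1086 CPM, so the ratio of Krt14 to Krt5 was 1.01, 1.53 and 1.08. In the AP, over RFP+ and RFP- cells, this ratio lay between 1.88 and 2.80 in 6 sums, and in the DLP between 1.96 and 4.01 in 4 sums. The 3 VP RFP+ ratios were the lowest of all 15, while VP RFP- cells had 3.85 in run 2 and 2.01 in run 3. No test was run on the ratio itself.

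In the test of AP against VP in Trp63+ RFP+ cells, 14 of 7141 genes passed (0.196% called) and 0 of the 4 keratins tested did, by edgeR or DESeq2. The edgeR log2 fold change was 0.49 (SE 0.22, adjusted p = 0.686) for Krt14, -0.49 (SE 0.24, adjusted p = 0.748) for Krt5, -0.37 (SE 0.27, adjusted p = 0.916) for Krt15 and 0.44 (SE 0.28, adjusted p = 0.889) for Krt17. Krt14 alone of the 4 had an unadjusted p under 0.05, in edgeR and in DESeq2. Populations of 1 run came from the same pool of mice, and with the run as a block 288 genes passed (4.03% called), Krt14 and Krt5 among them. The blocked log2 fold change was 0.49 (SE 0.11, adjusted p = 0.0139) for Krt14 and -0.48 (SE 0.11, adjusted p = 0.0199) for Krt5 in edgeR. Krt17 at 0.47 (SE 0.13, adjusted p = 0.0653) and Krt15 at -0.35 (SE 0.10, adjusted p = 0.0647) did not pass there. In each of the 3 runs Krt14 was higher and Krt5 lower in the AP than in the VP, and the call rests on the pairing by run.

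**Figure D1:**
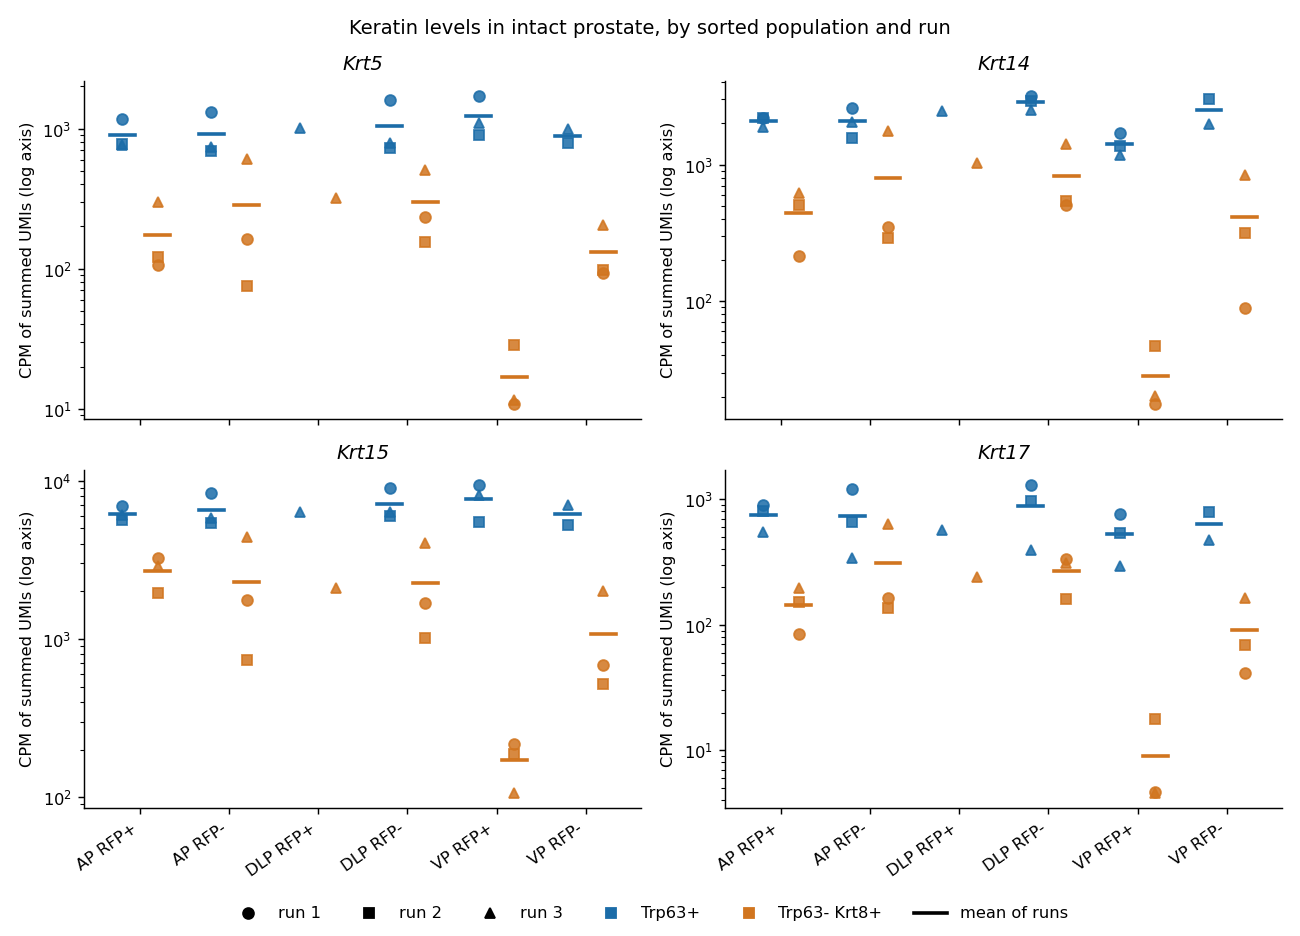
Levels of Krt5, Krt14, Krt15 and Krt17 (CPM of summed UMIs, log axis) in intact prostate by lobe and RFP sort, with 1 point per run, bars at the mean of the runs where there are at least 2, Trp63+ cells in blue and Trp63- Krt8+ cells in orange. Blue points lie between 5220 and 9353 CPM for Krt15 and between 297 and 1295 CPM for Krt17, and the orange points are lowest in VP RFP+ for all 4 genes.

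Trp63- Krt8+ cells mostly had less of Krt5, Krt14, Krt15 and Krt17 than Trp63+ cells of the same sort and run, with wide differences between runs, and Krt17 in AP RFP- of run 3 was above its Trp63+ level. Over 16 intact sums Krt15 lay between 107 and 4402 CPM, Krt14 between 17.6 and 1747 CPM, Krt5 between 10.8 and 611 CPM and Krt17 between 4.59 and 630 CPM. Hematopoietic sums reached 120 CPM of Krt5, 286 CPM of Krt14, 1366 CPM of Krt15 and 123 CPM of Krt17. In Trp63+ cells with no Krt8 UMI, of which runs 1, 2 and 3 had 14, 13 and 37, Krt15 was at 9319, 5293 and 6257 CPM, and with Krt8 it was at 7384, 5492 and 6315 CPM. Krt14 was at 2094, 1497 and 1215 CPM without and 2304, 2133 and 2227 CPM with Krt8, and Krt17 at 384, 1374 and 211 CPM without and 978, 720 and 485 CPM with it. In cells with neither a Trp63 nor a Krt8 UMI, which had 3836 to 4740 median UMIs, Krt15 was still at 5318, 2899 and 2377 CPM.

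A missing Trp63 UMI does not make a cell luminal, so the hemidesmosome collagen Col17a1, a basal gene, was read beside the keratins. In AP RFP- cells of run 3, Trp63- Krt8+ cells held 113% of the Col17a1 level of the Trp63+ cells and 82.8% of the Krt5, 84.7% of the Krt14, 75.7% of the Krt15 and 185% of the Krt17 level. In runs 1 and 2 of the same population Col17a1 was at 13.3% and 7.55%, and the 4 keratins lay between 10.8% and 21.2%. The summed level of 8 basal markers other than Trp63 was 8185 CPM in run 3 against 2165 and 1304 CPM in runs 1 and 2. These markers were Itga6, Itgb4, Col17a1, Lamb3, Dst, Dlk2, Dcn and Apoe. Col17a1, Itgb4 and Lamb3 were at 94.0, 87.4 and 50.9 CPM in run 3, so most of the sum came from the other markers. How much of the keratin level the basal cells account for was not tested.

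In AP RFP+ cells Krt15 was at a larger share of its Trp63+ level than Krt5, Krt14 and Krt17 in each run. The Krt15 level of Trp63- Krt8+ cells was 47.2%, 34.9% and 47.7% of that of Trp63+ cells in runs 1, 2 and 3 (mean 43.3% ± 7.24, SD, n = 3). For Krt5 these values were 9.05%, 15.4% and 38.7%, for Krt14 9.74%, 23.2% and 32.7%, and for Krt17 9.44%, 18.8% and 35.9%. Col17a1 was at 11.2%, 18.6% and 33.8%, but the hemidesmosome integrin Itgb4 was at 46.2%, 34.3% and 54.3%, near Krt15 in runs 1 and 2 and above it in run 3. In VP RFP+ cells none of Krt5, Krt14, Krt15 and Krt17 exceeded 3.46% of its Trp63+ level.

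When cells with a UMI of Col17a1, Itgb4 or Lamb3, all hemidesmosome or basement membrane genes, were left out, Krt15 stayed at 2447, 1294 and 903 CPM in Trp63- Krt8+ cells of AP RFP+, while Krt5 was at 45.9, 12.4 and 39.4 CPM. Krt15 was then at 35.6%, 23.1% and 14.9% of its Trp63+ level, Krt5 at 3.92%, 1.58% and 5.14%, Krt14 at 2.25%, 5.72% and 8.5%, and Krt17 at 3.78%, 1.65% and 17.7%, which in run 3 was above Krt15. In AP RFP- cells chosen the same way, Krt15 was at 102 and 54.6 CPM in runs 1 and 2 and at 2023 CPM in the 23 cells of run 3.

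At 3000 UMIs per cell, Krt15 was found without any Krt5, Krt14 or Krt17 UMI in 116 of 209 Trp63- Krt8+ cells of AP RFP+ in run 1 (55.5%, 48.5 to 62.4), 49 of 118 in run 2 (41.5%, 32.5 to 51.0) and 55 of 206 in run 3 (26.7%, 20.8 to 33.3). In AP RFP- cells the share was 9.26%, 7.21% and 6.93%, and in VP RFP+ cells 13.2%, 5.42% and 7.24%. Every AP RFP+ run was above every run of these populations. In hematopoietic cells of AP RFP+ it was 12.2% and 5.61% in runs 1 and 2, but 64.3% (9 of 14 cells) in run 3. Of those 9 hematopoietic cells, 6 had a UMI of Krt4.

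The AP RFP+ cells with Krt15 alone often carried Krt4, a type II keratin of stratified and ductal epithelia. Krt4 was found in 80 of 116, 32 of 49 and 26 of 55 of them in runs 1, 2 and 3, against 6 of 35, 3 of 37 and 2 of 85 of the cells in which Krt15 came with Krt5, Krt14 or Krt17. Col17a1 went the other way, with 1 of 116, 0 of 49 and 0 of 55 against 10 of 35, 11 of 37 and 24 of 85. These are shares of cells of 1 sum, given without a test.

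**Figure D2:**
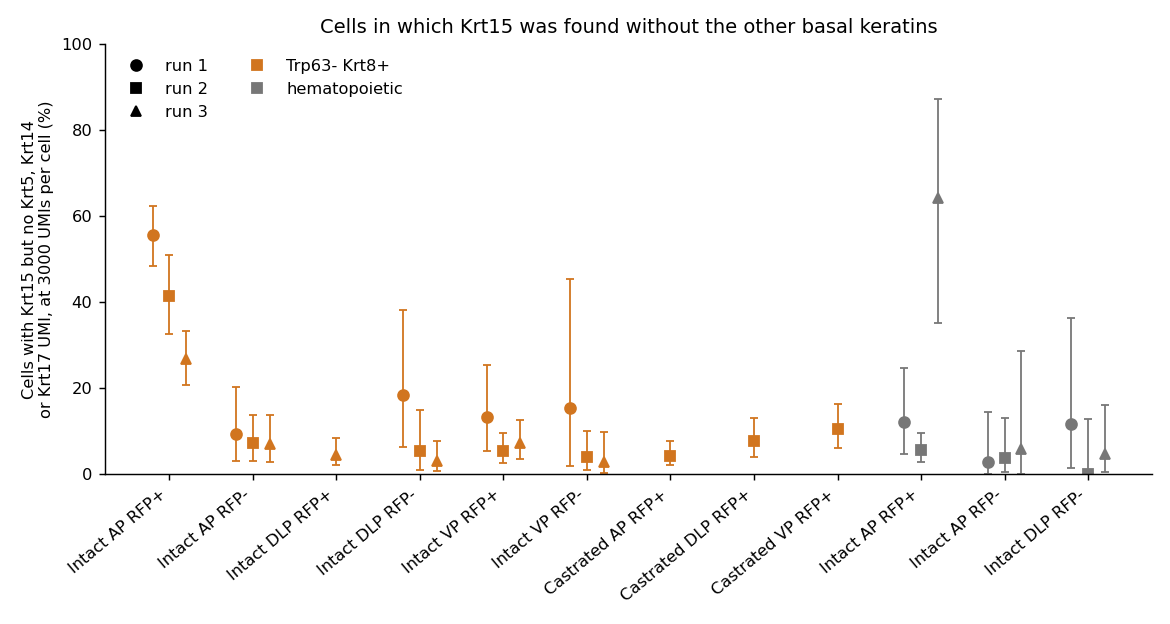
Share of cells (%, at 3000 UMIs per cell) with a Krt15 UMI and no Krt5, Krt14 or Krt17 UMI, with 1 point per run and 95% exact intervals, in Trp63- Krt8+ cells (orange) and hematopoietic cells (grey). Intact AP RFP+ lies at 55.5%, 41.5% and 26.7%, castrated AP RFP+ at 4.37%, and 14 hematopoietic cells of run 3 at 64.3%.

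No keratin passed the test of RFP+ against RFP- in Trp63- Krt8+ cells of the AP. Krt15 was at 3246, 1955 and 2896 CPM in RFP+ cells and at 1759, 738 and 4402 CPM in RFP- cells of runs 1, 2 and 3, so RFP+ was higher in runs 1 and 2 and lower in run 3. Krt17 was at 84.2, 152 and 196 CPM against 162, 135 and 630 CPM. Of 9235 genes, 176 passed in edgeR (1.91% called) and 638 with the run as a block (6.91% called). The edgeR log2 fold changes were 0.11 (SE 0.55, adjusted p = 0.967) for Krt15, -0.76 (SE 0.74, adjusted p = 0.728) for Krt5, -0.89 (SE 0.74, adjusted p = 0.670) for Krt14 and -1.16 (SE 0.63, adjusted p = 0.458) for Krt17. DESeq2 and the block called 0 of the 4 as well. In cells without Col17a1, Itgb4 and Lamb3 UMIs all 4 had positive log2 fold changes and none passed, with 0.99 (SE 1.02, adjusted p = 0.607 in edgeR) for Krt15. Of the other keratins, Krt7, a simple epithelial type II keratin, was higher in RFP+ cells, with a log2 fold change of 2.55 (SE 0.49, adjusted p = 0.0484 in edgeR).

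Whether the RFP difference of a keratin was itself different between the 2 classes of AP cells was tested as an interaction, the log2 fold change in Trp63+ cells minus that in Trp63- Krt8+ cells. It was -0.16 (SE 0.63) for Krt15, 0.77 (SE 0.86) for Krt5, 0.92 (SE 0.85) for Krt14 and 1.24 (SE 0.80) for Krt17 on the log2 scale, with adjusted p of 0.766 to 1.00 in edgeR. Of 9206 genes, 0 passed (0% called) with 769 at an unadjusted p under 0.05, while DESeq2 and the block for run each called 35 (0.38% called with the block) and none of these keratins.

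In the VP the keratins of Trp63- Krt8+ cells were lower in RFP+ than in RFP- cells. Krt5 was at 10.8, 28.4 and 11.5 CPM in RFP+ cells of runs 1, 2 and 3 and at 92.6, 98.2 and 206 CPM in RFP- cells. Krt14 was at 17.6, 46.8 and 20.2 CPM against 89.2, 317 and 841 CPM. Krt15 was at 218, 188 and 107 CPM against 686, 520 and 2010 CPM, and Krt17 at 4.68, 17.8 and 4.59 CPM against 41.2, 69.1 and 163 CPM. The RFP+ cells were deeper, with 41121 to 55644 median UMIs against 12431.5 to 31021.5. In run 1 the RFP- sum held only 13 cells, 3 of them with a Krt5 UMI.

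Here edgeR called 48 of 8424 genes (0.57% called), 47 of them lower in RFP+ cells (0.558% called). Krt5 passed, with a log2 fold change of -2.75 (SE 0.44, adjusted p = 0.0334). Krt14 at -3.68 (SE 0.74, adjusted p = 0.0696), Krt17 at -3.09 (SE 0.61, adjusted p = 0.0687) and Krt15 at -2.47 (SE 0.51, adjusted p = 0.0783) did not pass. With the run as a block, which called 177 genes (2.1% called), Krt5 (adjusted p = 0.0142), Krt14 (adjusted p = 0.0193) and Krt17 (adjusted p = 0.0242) passed in edgeR and Krt15 did not (adjusted p = 0.0566), and DESeq2 called all 4. Without run 2 or without run 3 no keratin passed, with an adjusted p for Krt5 of 0.175 and 0.549 in edgeR. Among cells with fewer than 7500 UMIs the log2 fold change of Krt5 was -0.25 (adjusted p = 0.951 in edgeR) and that of Krt15 0.13 (adjusted p = 0.960 in edgeR), while Krt14 at -1.90 (adjusted p = 0.000119 in edgeR) and Krt17 at -1.68 (adjusted p = 0.0377 in edgeR) passed.

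Beside the keratins, Col17a1 was at a mean of 1.08 CPM in VP RFP+ and 16.6 CPM in VP RFP- cells (log2 fold change -3.48, SE 0.57, adjusted p = 0.0334 in edgeR). It was the only one called of 13 tested genes from a list of 17 desmosome and hemidesmosome genes, which anchor keratin filaments to the membrane. The 8 basal markers summed to 496, 642 and 503 CPM in RFP+ cells and to 895, 1408 and 3335 CPM in RFP- cells. The part of basal cells without a Trp63 UMI in the keratin difference was not tested. Without cells that had a Col17a1, Itgb4 or Lamb3 UMI, the log2 fold change of Krt5 was -2.95 (adjusted p = 0.0248 in edgeR). Krt15 overlapped there, with RFP+ cells of run 1 at 152 CPM and RFP- cells of runs 2 and 3 at 92.0 and 264 CPM. RFP+ cells of runs 2 and 3 were below both RFP- values. This filter depends on UMIs and the RFP+ cells were deeper. It may therefore remove basal cells more fully from RFP+ than from RFP- cells, and it does not test their part.

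In RFP- cells of the same class, AP and VP did not differ in a keratin beyond the spread between runs. Of 6705 genes, 40 passed (0.597% called) and, with the block, 293 (4.37% called). The edgeR log2 fold changes were 0.36 (SE 0.70, adjusted p = 0.929) for Krt5, 0.23 (SE 0.87, adjusted p = 0.984) for Krt14, 0.36 (SE 0.70, adjusted p = 0.927) for Krt15 and 1.03 (SE 0.68, adjusted p = 0.686) for Krt17. In each lobe run 3 was the highest of the 3 runs for all 4 genes, and each of the 4 differences changed sign under at least 1 other choice of cells, runs or fit.

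**Figure D3:**
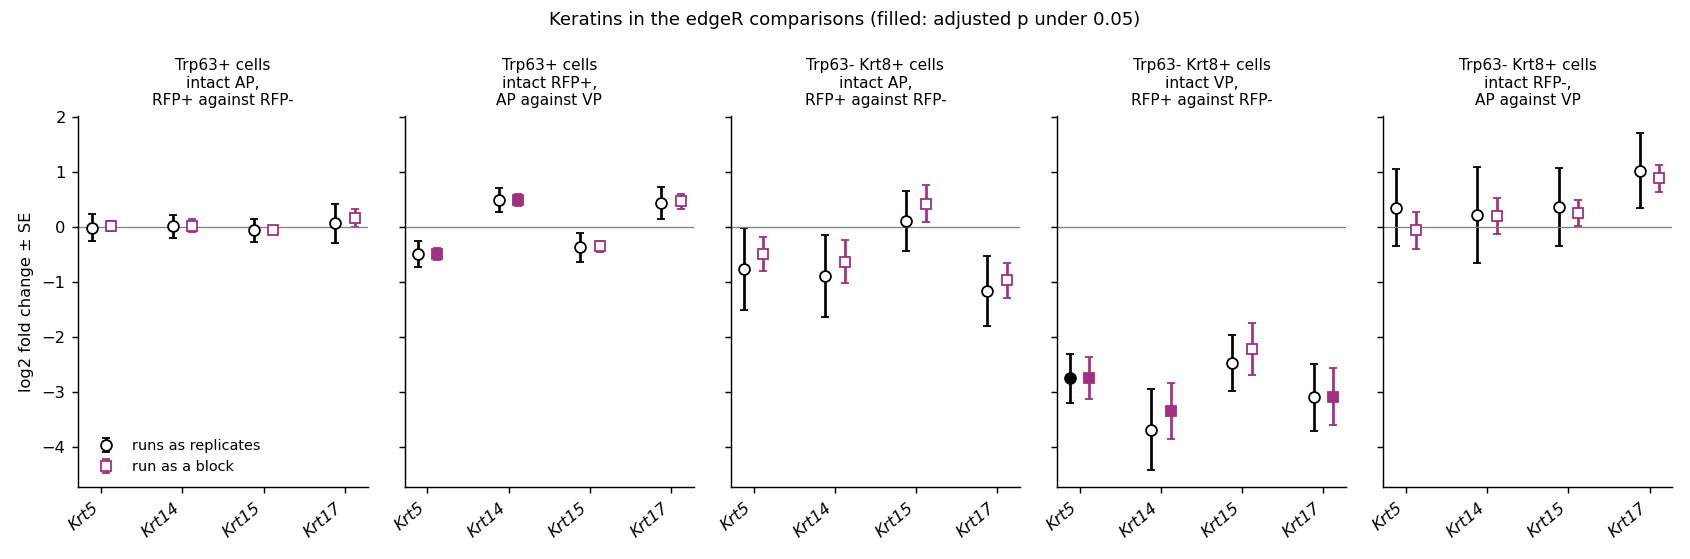
Log2 fold changes ± SE of Krt5, Krt14, Krt15 and Krt17 in 5 edgeR comparisons of intact cells, with the runs as replicates (circles) and with the run as a block (squares), filled where the adjusted p is under 0.05. Krt14 and Krt5 lie on opposite sides of 0 in AP against VP, and all 4 genes lie at -2.21 or below in VP RFP+ against RFP-.

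Few genes of the lists around these keratins passed the same tests. Of 10 stress-response genes (such as Fos, Jun, Egr1 and Hspa1a), all 10 were tested in all 6 comparisons and 0 passed, with medians between 0.013 and 0.42 on the log2 scale. From the list of 17 junction genes, 12 to 15 were tested and none passed except Col17a1. Of 48 other keratin genes in the files, 6 to 10 were tested, 5 averaged 50 CPM or more in either class (Krt8, Krt18, Krt19, Krt7 and Krt4), and Krt7 alone passed, in the AP.

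Castrated and intact cells were compared within run 2, with 1 pool of mice each and therefore no test. A ratio was counted where it reached 2-fold and the gene averaged 20 CPM or more over both sums, and 15 of 29 keratin ratios did. Of all genes, 1.83% to 44.7% were at least 2-fold higher and 1.66% to 9.5% lower, depending on the comparison. The 29 ratios share sums and are not independent results. The ratio intervals cover counting error of 2 sums and not the spread between animals. The paper reports far more RFP+ epithelial cells after castration, with RFP in nearly all basal cells. An RFP gate therefore need not hold the same cells in both treatments.

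In Trp63+ cells of AP RFP+, Krt15 had the lowest ratio of castrated to intact level. Krt15 was at 3378 CPM in castrated and 5601 CPM in intact cells (ratio 0.603, 0.576 to 0.631). Krt5 was at 655 against 782 CPM, Krt14 at 1948 against 2180 CPM and Krt17 at 947 against 811 CPM (ratios 0.838, 0.894 and 1.17). None of the 4 reached 2-fold, which 6.78% of genes did downward and 1.83% upward. In Trp63+ cells of VP RFP+, with 26 castrated cells, the ratios were 0.542 for Krt17, 0.716 for Krt14, 0.803 for Krt15 and 0.917 for Krt5, with 8.28% of genes at least 2-fold lower and 9.74% higher.

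In Trp63- Krt8+ cells of AP RFP+, Krt15 was at 766 CPM after castration and at 1955 CPM in intact mice (ratio 0.392, 0.373 to 0.412), past the 2-fold limit that 5.21% of genes passed downward. Krt14 was at 297 against 505 CPM (ratio 0.588), while Krt5 at 105 against 120 CPM and Krt17 at 166 against 152 CPM were near their intact levels. Cells with Krt15 but no Krt5, Krt14 or Krt17 UMI made up 11 of 252 (4.37%, 2.20 to 7.68) against 49 of 118 (41.5%), and 8.33% of the castrated hematopoietic cells of AP RFP+. Among cells with fewer than 7500 UMIs, the ratio of Krt15 was 1.09, so this difference depends on the deeper cells.

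Krt6a was the 1 keratin at least 2-fold higher in castrated AP RFP+ cells. It was at 43.6 CPM in the Trp63- Krt8+ cells of castrated and at 3.52 CPM in those of intact mice (162 and 6 UMIs, ratio 12.4, 5.56 to 34.2), and 5.7% of genes were at least 2-fold higher in this comparison. A Krt6a UMI was found in 49 of 259 castrated cells (18.9%, 14.3 to 24.2) and in 3 of 121 intact cells (2.48%, 0.514 to 7.07), with 10308 and 8843 median UMIs per cell. Hematopoietic cells gave 2 of 51 (3.92%) in castrated and 0 of 238, which allows up to 1.26% of cells with a UMI at their depth of 6797.5 median UMIs, in intact AP RFP+. At 3000 UMIs the shares were 9.13% and 0.847%, and the ratio lay between 9.99 and 16.1 under the 7 other settings that gave a value. The UMIs were spread over the cells, with at most 18 of the 162 in 1 cell.

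Few of these castrated AP RFP+ cells had Krt6a together with Krt17 or Krt5. Most cells of the class lacked Krt17 and Krt5, but cells with Krt6a had them less often than the class as a whole. This difference was not tested. Of the 49 castrated cells with Krt6a, 8 also had Krt17, 6 had Krt5 and 14 had Krt15. Of all 259 castrated cells of the class, 83 had Krt17, 82 had Krt5 and 123 had Krt15. The summed level of the 10 stress-response genes was 7369 CPM in castrated and 6811 CPM in intact cells of this class, and that of 7 urothelial markers 935 and 700 CPM, and their part in the Krt6a level was not tested. In castrated DLP RFP+ cells, which had no intact match in run 2, 22 of 164 (13.4%, 8.60 to 19.6) had Krt6a against 3 of 29 hematopoietic cells (10.3%). A single cell held 24 of the 60 Krt6a UMIs of the Trp63- Krt8+ cells, and another held 42 of the 44 of the hematopoietic cells. In castrated VP RFP+ it was 2 of 166. In run 1, where castrated lobes were pooled, 13 castrated RFP+ cells of this class had Krt15 at 346 CPM, Krt14 at 454 CPM and Krt6a at 4.68 CPM.

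In the RFP- gates, the Trp63- Krt8+ cells sorted from castrated mice had far less of most basal keratins than those from intact mice. Trp63+ cells in the castrated AP, DLP and VP gates numbered 3, 4 and 3, against 30, 21 and 39 in the intact ones. The gates may thus hold different cells, and a change within a fixed population was not tested. In the AP, Krt5 was at 9.49 against 75.4 CPM, Krt14 at 41.1 against 289 CPM, Krt15 at 158 against 738 CPM and Krt17 at 9.49 against 135 CPM (ratios 0.126, 0.142, 0.214 and 0.0701), and 7.08% of genes were at least 2-fold lower and 3.45% higher. In the DLP the ratios were 0.204 for Krt5, 0.0539 for Krt14, 0.218 for Krt15 and 0.0131 for Krt17, where 1 UMI was left in 21 castrated cells, and 9.5% of genes were at least 2-fold lower and 2.3% higher. In the VP, with 10 castrated cells, Krt5 and Krt14 were at 0.236 and 0.0731 of the intact level, Krt15 was at 0.501 and Krt17 at 1.05, and 5.37% of genes were at least 2-fold lower and 2.89% higher. The summed level of the 8 basal markers was also lower, at 440 against 1304 CPM in the AP, 731 against 1965 CPM in the DLP and 703 against 1408 CPM in the VP. The part of basal cells in these ratios was not tested.

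VP RFP+ cells were the exception, with ratios of 2.35 (2.00 to 2.75) for Krt14, 2.07 (1.91 to 2.24) for Krt15, 2.06 (1.57 to 2.69) for Krt17 and 1.69 for Krt5. Here 44.7% of all genes were at least 2-fold higher (1.66% lower) and the median log2 ratio of all genes was 0.90, close to the log2 ratios of 1.23 for Krt14, 1.05 for Krt15, 1.04 for Krt17 and 0.76 for Krt5. With library sizes counted without the 50 most abundant genes and the keratins, the ratio was 1.20 for Krt14, 1.06 for Krt15, 1.06 for Krt17 and 0.866 for Krt5, and among cells with fewer than 7500 UMIs it was 0.941 for Krt14 and 0.435 for Krt15. The castrated cells had 10763 and the intact cells 41121 median UMIs.

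**Figure D4:**
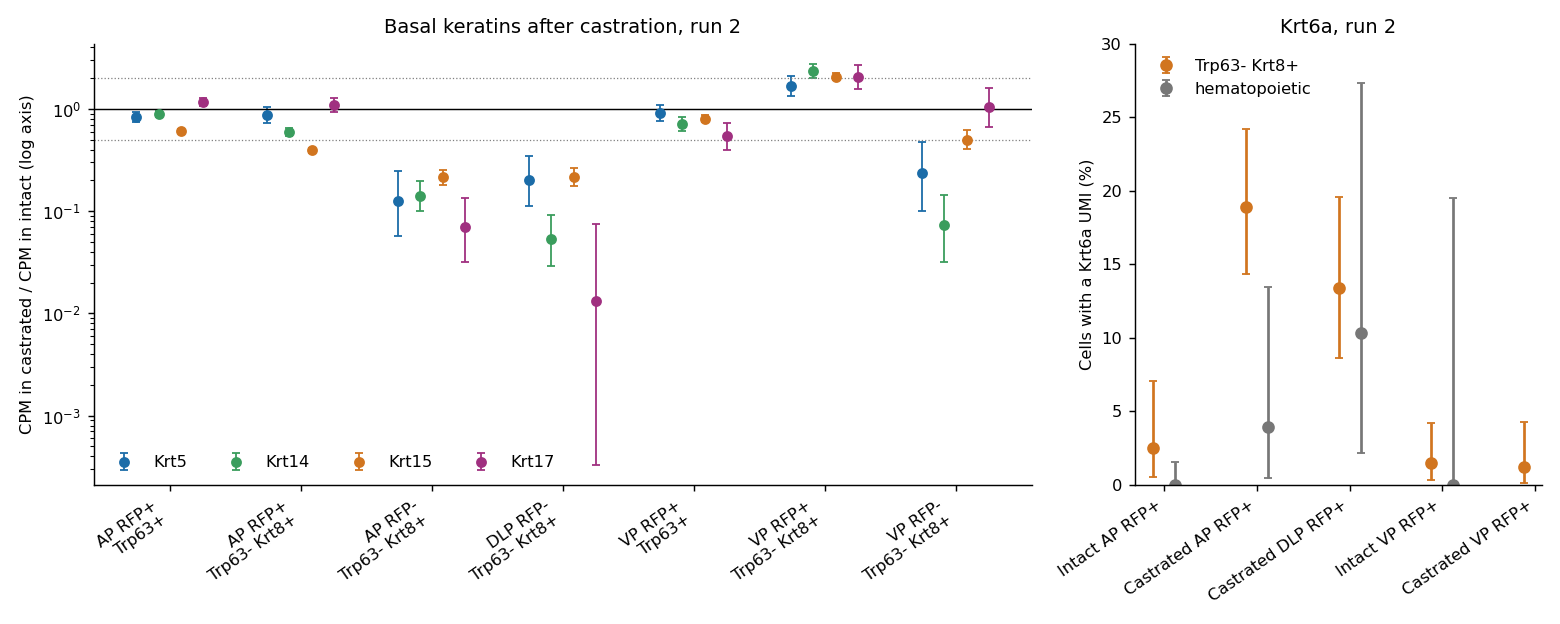
Left, ratio of castrated to intact CPM in run 2 (log axis, 95% exact intervals, dotted lines at 2-fold) for 4 keratins in each population and class, and right, share of cells with a Krt6a UMI (%, 95% exact intervals) in Trp63- Krt8+ (orange) and hematopoietic (grey) cells. Ratios are below 1 for all 4 keratins in AP RFP- and DLP RFP-, above 2 for 3 of them in VP RFP+ Trp63- Krt8+ cells, and Krt6a is found in 18.9% of castrated AP RFP+ cells.

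In the explants Krt5 and Krt14 were higher on each later day of culture, while Krt15 was high from the start. The days shared 1 library with 1 pool of explants each, so no test was possible. In Trp63+ cells of days 0, 1, 3 and 6, Krt14 was at 534, 686, 1317 and 1530 CPM and Krt5 at 746, 841, 937 and 1253 CPM. Krt15 was at 6595, 4865, 4868 and 4672 CPM, so its first day was the highest. The ratio of consecutive days reached 2-fold for none of the keratins in Trp63+ cells, with the largest at 1.92 (1.87 to 1.98) for Krt14 from day 1 to day 3. Of all genes in Trp63+ cells, 1.09%, 0.639% and 0.556% were at least 2-fold higher on days 1, 3 and 6 than on the day before in the series, and 0.962%, 0.602% and 0.464% lower. On day 0 Krt14 was below Krt5, the reverse of the adult order, and from day 3 on it was above.

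The Trp63- Krt8+ cells of the explants carried Krt5, Krt14 and Krt15 at 46.3% to 116% of their Trp63+ level of the same day, where adult VP RFP+ cells had at most 3.46% and AP RFP- cells of run 3 had 75.7% to 84.7%. Krt5 was at 496, 559, 721 and 1443 CPM on days 0, 1, 3 and 6, Krt14 at 247, 353, 984 and 1594 CPM, and Krt15 at 4569, 4065, 4493 and 5397 CPM. From day 1 to day 3, Krt14 was 2.79-fold (2.62 to 2.96), Krt6a 2.62-fold (2.24 to 3.07) and Krt17 2.00-fold (1.86 to 2.16) higher, where 1.01% of genes were at least 2-fold higher and 1.19% lower. From day 3 to day 6 Krt5 was 2.00-fold (1.94 to 2.07) higher, against 0.544% of genes (0.506% lower). From day 0 to day 1, where 1.86% of genes were at least 2-fold higher and 1.52% lower, no keratin was. These were 4 of 30 keratin ratios, and Krt17 and Krt5 lie on the limit itself. Col17a1 in the same cells was at 12.7, 20.6, 20.9 and 43.9 CPM, or 68.0%, 57.9%, 45.9% and 86.9% of its Trp63+ level. Without cells that had a Col17a1, Itgb4 or Lamb3 UMI, Krt14 was at 19.1%, 18.7%, 29.1% and 36.7% of its Trp63+ level. Krt5 was then at 48.7%, 50.6%, 40.3% and 58.4%, and Krt15 at 56.8%, 86.5%, 76.4% and 88.5%. In CPM, Krt5 was then at 363, 426, 378 and 731, so day 3 was below day 1. The part of basal cells without a Trp63 UMI was not tested. The paper separated a cluster of developing bladder urothelium from the prostatic cells of this library, which was not done here. The 7 urothelial markers summed to 482, 909, 456 and 529 CPM in Trp63- Krt8+ cells on days 0, 1, 3 and 6. In Trp63+ cells they summed to 518, 505, 332 and 213 CPM. The part of urothelial cells in the keratin levels was not tested.

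In Trp63+ cells the stress keratins took another course from the basal pair. In Trp63- Krt8+ cells Krt17, like the pair, was highest on day 6. Krt17 in Trp63+ cells was at 685, 394, 365 and 501 CPM on days 0, 1, 3 and 6, with day 0 the highest, and in Trp63- Krt8+ cells at 360, 239, 479 and 642 CPM. Krt6a was at or above the highest intact adult sum of 25.9 CPM, itself of 14 UMIs, on each day, at 40.2, 25.9, 35.5 and 37.0 CPM in Trp63+ cells and at 41.0, 53.5, 140 and 93.1 CPM in Trp63- Krt8+ cells. A Krt6a UMI was found in 25.6%, 18.9%, 12.7% and 8.44% of Trp63+ cells, and at 3000 UMIs in 7.76%, 3.66%, 5.25% and 4.13%, so no order over days is read from these shares. A few cells held much of it, with up to 134 of 956 UMIs in 1 Trp63+ cell on day 6 and 167 of 937 in 1 Trp63- Krt8+ cell on day 3. The 10 stress-response genes summed to 10742, 10584, 9158 and 6417 CPM in Trp63+ cells, with day 6 the lowest. In Trp63- Krt8+ cells they summed to 9480, 10469, 9567 and 8674 CPM, with day 6 again the lowest.

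**Figure D5:**
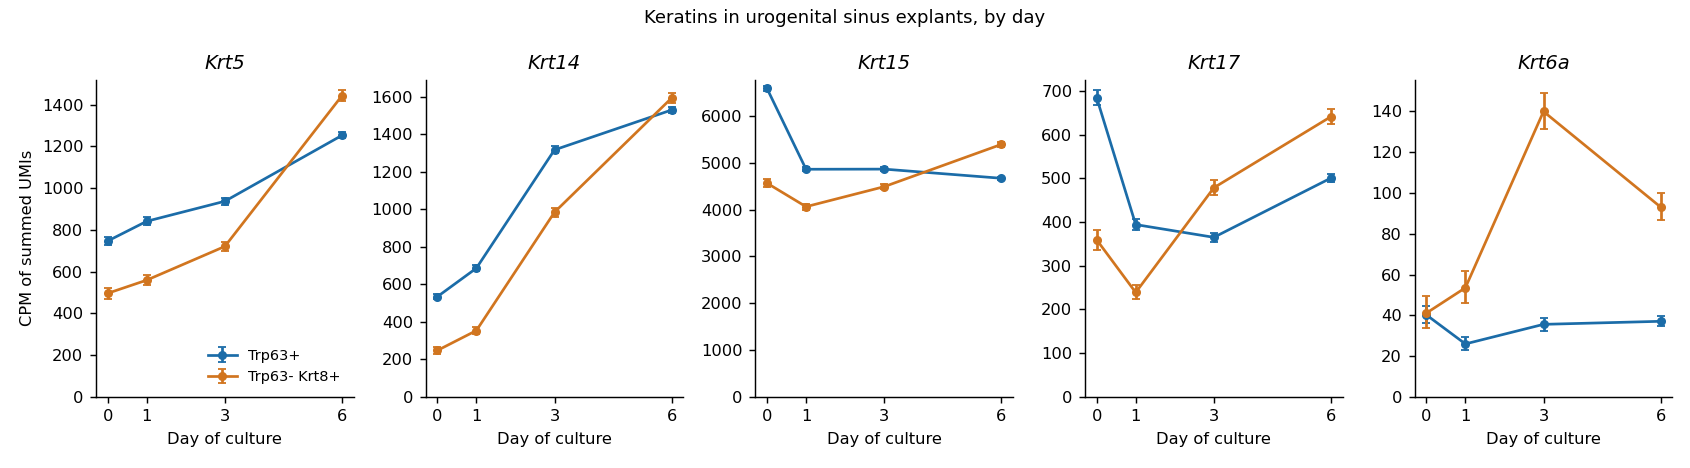
Levels of the 5 keratins (CPM of summed UMIs, 95% exact intervals) by day of culture in explant cells that were Trp63+ (blue) or Trp63- Krt8+ (orange). Krt5 and Krt14 are highest on day 6 in both classes, Krt15 and Krt17 of Trp63+ cells are highest on day 0, and Krt6a of Trp63- Krt8+ cells is highest on day 3.

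Across 18 adult Trp63+ sums, intact and castrated, the genes most like each keratin were found by Pearson's r of log2(CPM + 1) among 2541 genes averaging 50 CPM or more. For Krt5 these were Ypel3 (r = 0.924), 1600014C10Rik (0.904) and Pdpn, the membrane protein podoplanin (0.897). For Krt15 they were Aldh2, a mitochondrial aldehyde dehydrogenase (0.952), Spcs1 (0.941) and Selenop (0.938). For Krt14 they were Zbtb20 (0.818), Rars (0.785) and Slc25a3 (0.765), and for Krt17 Eif5a, a translation factor (0.881), Smim7 (0.847) and Ly6e (0.825). Krt6a, itself under 50 CPM, was most like Utp14b (0.897), Foxq1 (0.875) and Chd4 (0.844). Among the members Krt5 and Krt15 were most alike (r = 0.848), then Krt14 and Krt17 (r = 0.605), whose transcript ends share some windows. Krt5 and Krt14 had r = 0.246. The sums share runs and depth, so these values describe the 18 sums only.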

How the data were processed

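For each cell the deposited matrices give raw UMI counts over 31053 genes, which the authors made with Cell Ranger 3.1.0 on mm10 (GRCm38), as given in the submitters' processing notes, together with MULTI-seq barcode counts. The adult runs hold 2612, 6034 and 3028 cells and the explant library 7474. Cells with more than 750.0 and fewer than 7500.0 genes and under 10.0% mitochondrial UMIs (explants: over 1000.0 genes, under 7.5%) were kept, and a cell was assigned where exactly 1 barcode passed the authors' thresholds, which left 824, 2194, 1673 and 5198 cells. Cells with several barcodes (326, 962, 452 and 823) were left out as doublets, and no doublet caller was run. The paper reports that the barcode of intact DLP RFP+ cells failed in runs 1 and 2, and that it used DoubletFinder for those runs. Doublets of such unlabelled cells with labelled ones may therefore remain here. The libraries shared 0 to 2 cell barcodes pairwise.

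Cells with at least 2 hematopoietic, 2 endothelial, 2 mesonephric or 5 fibroblast marker UMIs were set apart. UMI counts were summed per run, population and class and tested with edgeR 4.0.16 (TMM, filterByExpr, quasi-likelihood test) in R 4.3.3 with Benjamini-Hochberg adjustment over all genes tested and a threshold of 0.05, and DESeq2 1.42.0 was the alternative. The scripts were tested on simulated data. Comparisons without replicates used exact Poisson and binomial intervals in scipy 1.17.1. Shares were also computed after thinning each cell to 3000 UMIs, without shallower cells. Populations of 1 run came from the same pool of mice, and deviations of same-run sums from their group means correlated at 0.157 to 0.571, each above 0.1, so the run was used as a block in a second fit.

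Named were the 5 keratins in every comparison, other keratins of at least 50 CPM, called genes of the junction list and the 3 genes most like each keratin. Sequences of the type II members are not reported here. The genes, lists and classes were chosen with earlier results of these data known. Alternatives were DESeq2, no low-count filter, the block, dropping each run in turn, sums of 20 cells or more, at least 2 Trp63 or 5 Krt8 UMIs, no Col17a1, Itgb4 or Lamb3 UMI, at least 5000 or fewer than 7500 UMIs per cell, no cells of the top 6% of UMIs, no removal of other cell types, and library sizes without the 50 most abundant genes and the keratins. The study's methods word the upper limit of 7500 as UMIs: here it was applied to genes, and to UMIs as an alternative.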

Additional observations from a re-analysis of the deposited data

Results flagged for a closer look

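Under the same contrast, castrated against intact Trp63- Krt8+ cells of run 2, Krt14, Krt15 and Krt17 passed 2-fold in opposite directions. Their ratios past 2-fold lay above 1 in VP RFP+ cells and below 1 in other populations. The former depended on the scaling and on the deeper cells. Krt14 was at 2.35 times the intact level in VP RFP+ cells, but at 0.142 in AP RFP-, 0.0539 in DLP RFP- and 0.0731 in VP RFP- cells. Krt15 was at 2.07 in VP RFP+ cells and at 0.392 in AP RFP+, 0.214 in AP RFP- and 0.218 in DLP RFP- cells. Krt17 was at 2.06 in VP RFP+, 0.0701 in AP RFP- and 0.0131 in DLP RFP- cells. With 1 pool per treatment the difference between populations was not tested, and 44.7% of all genes were at least 2-fold higher in VP RFP+, with a median log2 ratio of 0.90. With library sizes counted without the 50 most abundant genes and the keratins, the VP RFP+ ratios were 1.20 for Krt14, 1.06 for Krt15 and 1.06 for Krt17, and among cells with fewer than 7500 UMIs they were 0.941 for Krt14, 0.435 for Krt15 and 1.22 for Krt17. Among these cells Krt15 in AP RFP+ was at 1.09.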

How the results depend on the processing

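Of 343 log2 fold changes of keratins recomputed under other settings, 274 kept direction and side of the threshold, 19 passed only under the alternative, 4 no longer passed and 46 changed sign. Of 194 castration ratios 125 held within their interval, 66 moved and 3 changed sign, and of 210 explant ratios 148 held and 62 moved. The cause of these changes was not tested. Class choices that leave Trp63+ cells as they are gave no value for the tests within them, and Krt17 could not be tested in the VP without Col17a1, Itgb4 and Lamb3 UMIs.

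The number of genes called depended on the fit. For Trp63+ RFP+ cells of AP against VP it was 14, and became 43 with DESeq2, 214 without the filter on low counts, 288 with the run as a block, 3 with sums of 20 cells or more, 7 with at least 2 Trp63 UMIs, 8 with at least 5000 UMIs per cell, 1 with fewer than 7500, 2 without removal of other cell types, and 0 to 10 without 1 run. For Trp63- Krt8+ cells of the AP, RFP+ against RFP-, it was 176, and became 469 with DESeq2, 546 without the filter, 638 with the block, 1054 without Col17a1, Itgb4 and Lamb3 UMIs, 87 with fewer than 7500 UMIs, 295 without the top 6% of cells, 823 without removal of other cell types, and 0 to 663 without 1 run (663 without run 3). For the same sorts in the VP it was 48, and became 167 with DESeq2, 368 without the filter, 177 with the block, 146 with sums of 20 cells or more, 19 with at least 5 Krt8 UMIs, 29 without Col17a1, Itgb4 and Lamb3 UMIs, 158 without the top 6% of cells, and 0 to 117 without 1 run (117 without run 1). For RFP- cells of AP against VP it was 40, and became 149 with DESeq2, 307 without the filter, 293 with the block, 0 with sums of 20 cells or more, 19 with at least 5 Krt8 UMIs, 380 without Col17a1, Itgb4 and Lamb3 UMIs, 26 with at least 5000 UMIs, 5 with fewer than 7500, 4 without the top 6% of cells, 359 without removal of other cell types, and 0 to 249 without 1 run (249 without run 3). For Trp63+ cells of the AP 0 became 26 without the filter. For the interaction 0 became 35 with DESeq2, 56 without the filter, 35 with the block, 265 without Col17a1, Itgb4 and Lamb3 UMIs and 4 without removal of other cell types. Both stayed at 0 without any 1 run.

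Pairing by run through the block changed the keratin calls given beside the results and no other. Signs of log2 fold changes that did not pass turned as follows. In Trp63+ cells of the AP, Krt5 was at 0.049 without the filter, 0.017 with the block, 0.020 with at least 2 Trp63 UMIs, 0.019 without the top 6% of cells, 0.015 without removal of other cell types, and -0.072 to 0.12 without 1 run. Krt14 was at -0.14 with at least 2 Trp63 UMIs, -0.13 with fewer than 7500 UMIs and -0.19 to 0.16 without 1 run, Krt15 at 0.13 with fewer than 7500 UMIs and -0.12 to 0.075 without 1 run, and Krt17 at -0.21, -0.17 and -0.11 to 0.47 in the same order as Krt14. In AP against VP, Krt17 was at -0.11 with fewer than 7500 UMIs.

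In Trp63- Krt8+ cells of the AP without Col17a1, Itgb4 and Lamb3 UMIs, Krt5 was at 0.45, Krt14 at 0.37 and Krt17 at 1.14. Krt15 was at -0.62 with fewer than 7500 UMIs and -0.19 to 0.94 without 1 run, and Krt14 at -1.48 to 0.10 without 1 run. In the VP, Krt15 was at 0.13 with fewer than 7500 UMIs. In RFP- cells of AP against VP, Krt5 was at -0.060 with the block, and without Col17a1, Itgb4 and Lamb3 UMIs, with fewer than 7500 UMIs, without the top 6% of cells and without removal of other cell types Krt5 was at -0.60, -0.60, -0.14 and -0.25 and Krt14 at -1.44, -0.86, -0.54 and -0.35. Krt15 was at -0.010, -0.13 and -0.26 in the last 3 of these, Krt17 at -1.01 in the first, and Krt14 at -0.27 with sums of 20 cells or more. Without 1 run Krt5 lay at -0.53 to 0.58 and Krt14 at -0.16 to 0.40. The interaction without Col17a1, Itgb4 and Lamb3 UMIs was -0.086 for Krt5, -0.13 for Krt14 and -0.76 for Krt17, and for Krt15 it was 0.75 with fewer than 7500 UMIs and -1.04 to 0.15 without 1 run.

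The Krt15 level of Trp63- Krt8+ cells in AP RFP+ was 24.5% of the Trp63+ level without Col17a1, Itgb4 and Lamb3 UMIs, against 43.3%, and 41.1% to 47.4% without 1 run. The count of castration ratios past 2-fold became 8 of 18 without Col17a1, Itgb4 and Lamb3 UMIs and 3 of 16 with fewer than 7500 UMIs. With fewer than 7500 UMIs the ratio was 1.09 for Krt15 in AP RFP+, and 0.941 for Krt14 and 0.435 for Krt15 in VP RFP+. The explant count became 2 of 30 with at least 5000 UMIs. Depth limits Krt6a, at 0 to 15 UMIs in most adult sums, and all RFP- sums of castrated mice, with 10 to 49 cells.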

Other observations

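Cells set apart for endothelial markers carried keratins at basal levels in 2 of the 3 intact sums with at least 10 such cells, where Krt15 was at 5021 and 4363 CPM and Krt5 at 812 and 697 CPM in run 1 of AP RFP+ and AP RFP-. In run 3 of DLP RFP+ they were at 859 and 104 CPM. In the explants, 10 hematopoietic cells of day 6 had Krt15 at 4531 CPM and Krt14 at 1037 CPM.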
